A study of Mus musculus with 10 samples.

Results

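The genes described here are 45 named neighbours of Trem1 on mouse chromosome 17, out of 54532 genes in the deposited expression table. They were listed by name to look at the DNA that flanks the targeted locus, and all 45 were found. The series holds 10 RNA libraries of peritoneal macrophages taken from mice, in 3 groups. Young wild-type mice gave 4 libraries (replicates A, B, C and E), aged wild-type mice 3 (replicates 3, 4 and 6) and aged mice with the genotype Trem1-/- 3 (replicates 1, 2 and 3). No treatment is named, and there was no young Trem1-/- group. Neither the background strain, the number of backcrosses, the design of the deleted allele, the ages in months nor any sorting step is given in the sources used here. Nothing there says that the libraries came from separate mice, so p-values measure the spread between these libraries, which may be technical.

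Trem1 encodes a receptor of myeloid cells that amplifies inflammatory signals together with Toll-like receptors. When a gene is disrupted in cells of one mouse strain and the allele is bred into another, a stretch of donor-strain DNA remains linked to it. Genes on that stretch can then differ between knockout and wild-type mice because of strain variants. The libraries labelled Trem1-/- were therefore compared with aged and with young wild type for each gene. The table counts reads per gene and holds no alleles, so the strain of origin of the flanking DNA was not analysed here.

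Shown here are 4 stretches of 250 bases upstream of RefSeq start sites (GRCm38.p6). Trem1 is the targeted locus, Rfx2 and Lrg1 had their highest levels in all 3 libraries labelled Trem1-/-, and Unc5cl is a near neighbour with a pair of adjoining CCAAT boxes. Capitals mark the letters CCAAT or their reverse complement ATTGG, the letters bound by the factor NF-Y. Its DNA-contacting subunit Nfya is itself a neighbour of Trem1. The sequences run 5′ to 3′ on the gene's strand.
Trem1, chr17:48232489-48232738, plus strand: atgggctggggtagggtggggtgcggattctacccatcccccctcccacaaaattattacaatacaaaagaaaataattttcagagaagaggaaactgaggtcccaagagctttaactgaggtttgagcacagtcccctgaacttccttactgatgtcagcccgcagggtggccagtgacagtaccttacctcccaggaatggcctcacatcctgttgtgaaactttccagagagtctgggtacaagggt
Rfx2, chr17:56831009-56831258, minus strand: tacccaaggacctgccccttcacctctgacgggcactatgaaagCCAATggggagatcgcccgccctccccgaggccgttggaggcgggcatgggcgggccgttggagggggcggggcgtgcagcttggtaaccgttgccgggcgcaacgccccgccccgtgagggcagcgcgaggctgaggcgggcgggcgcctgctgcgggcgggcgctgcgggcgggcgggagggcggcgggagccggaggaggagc
Lrg1, chr17:56121947-56122196, minus strand: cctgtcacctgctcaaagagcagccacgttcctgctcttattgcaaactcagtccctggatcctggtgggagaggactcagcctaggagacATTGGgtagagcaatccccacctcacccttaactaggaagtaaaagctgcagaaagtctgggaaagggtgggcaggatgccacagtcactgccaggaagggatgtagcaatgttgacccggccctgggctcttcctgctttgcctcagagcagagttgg
Unc5cl, chr17:48454651-48454900, plus strand: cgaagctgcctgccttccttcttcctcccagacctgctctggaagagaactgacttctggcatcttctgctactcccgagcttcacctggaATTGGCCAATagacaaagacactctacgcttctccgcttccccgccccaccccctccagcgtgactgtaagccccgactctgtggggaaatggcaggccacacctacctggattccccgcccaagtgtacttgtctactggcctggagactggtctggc
No CCAAT or ATTGG lay in the Trem1 stretch. Rfx2 had CCAAT beginning 206 bases before the start, Lrg1 had ATTGG at 159 bases, and Unc5cl had ATTGG at 159 and CCAAT at 154 bases. The letters were present on either strand in 20 of the 44 members with a RefSeq stretch (45.5%), and in 37.5% of 27025 genes with one. The E-box CACGTG was in 5 of the 44 against 6.86% of all genes, and TATAAA, or TTTATA on the other strand, was in 6 of the 44 against 14.3%. The Rfx2 stretch was 76% G or C, Unc5cl 58.4%, Lrg1 55.2% and Trem1 49.6%, beside a median of 52.4% over all stretches. Plcl2 had no entry.

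Most members lie close to the locus on GRCm38 (GENCODE M21). Trem1 spans chr17:48232768-48246924. Of the 45 members, 15 lie within 1 Mb of it, 14 at 1 to 2 Mb and 14 at 2 to 5 Mb, measured as the gap between gene ends. Nfya is the nearest, 0.14 Mb towards higher coordinates, followed by Oard1 at 0.16 Mb. Rcan2, 4.19 Mb away at lower coordinates, is the farthest of these 43. The other 2 members stand apart, with Lrg1 at 7.87 Mb and Rfx2 at 8.53 Mb, in a stretch (5 to 10 Mb) where 56 genes were tested and only these 2 are members. The list was drawn up with earlier results of these data known. Counts of members that passed for libraries labelled Trem1-/- are therefore followed by those over the members within 5 Mb. Medians and counts by direction, by role, on leave-one-out and between aged and young wild type cover all tested members.

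Trem1 itself did not have lower counts in the libraries labelled Trem1-/-. Its normalized counts there were 23.5, 106 and 13.8 (replicates 1, 2 and 3), from 23, 132 and 12 reads. Aged wild type held 64.0, 15.3 and 27.0, and young wild type 14.8, 8.0, 12 and 24.4. The groups overlapped, and replicate 2 of the libraries labelled Trem1-/- was the highest of all 10. The ratio of means was 2.02 (47.7 ± 50.5, SD, n = 3, against 23.6 ± 19, SD, n = 7), and the two-sided exact permutation test gave p = 0.242, where 0.00833 is the smallest possible. Without replicate 2 the ratio was 0.788 (exact permutation p = 0.667). Counts were made per gene, and which exons the allele removes is not given in the sources used here, so these reads do not check the genotype labels. The groups are therefore named by their labels throughout, and every direction below rests on those labels. Of the receptor family beside it, Trem2 and Treml2 were also tested. Trem2, the lipid-sensing receptor of macrophages and microglia, was lower in aged than young wild type (-1.58 on the log2 scale, limma adjusted p = 0.0181) and did not pass for libraries labelled Trem1-/- against aged wild type (0.37, adjusted p = 0.622). Treml2, a relative of Trem1, was lower in libraries labelled Trem1-/- than in aged wild type (-1.59 on the log2 scale, limma adjusted p = 0.04) and higher in aged than young wild type (2.12, adjusted p = 0.00407). Against young wild type neither passed, with -1.21 for Trem2 (limma adjusted p = 0.234) and 0.53 for Treml2 (0.651). For Trem2, libraries labelled Trem1-/- held 62.3, 23.2 and 14.9 normalized counts, beside 56.6 to 80.7 in young wild type.

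Depth ran from 2663744 to 5603498 reads per library, so 3 reads were worth 1.85 to 3.84 normalized counts. Markers of other cells differed between the groups. The summed level of 10 macrophage markers spanned 25266 to 40780 normalized counts among aged wild-type libraries. It spanned 82340 to 90561 among young ones and 72372 to 92280 among those labelled Trem1-/-. Lyz2 alone made up most of this sum in every library, with 51142 of 78539 in replicate 1 labelled Trem1-/-. Timd4 held 914, 518 and 956 normalized counts in libraries labelled Trem1-/-. These values overlapped both the aged (346, 839 and 513) and the young ones (1781, 1741, 1943 and 718). Cd68 labelled Trem1-/- (691 to 819) also overlapped aged wild type (344 to 698). The other macrophage markers labelled Trem1-/- lay above every aged library. For 10 B-cell markers the aged wild-type sums were 13178 to 22219, the young sums 2432 to 5363 and those labelled Trem1-/- 6139 to 13129. For 10 T- and NK-cell markers they were 322 to 513, 51.1 to 116 and 65.4 to 131, and for 8 mesothelial markers 302 to 668, 6.77 to 162 and 17.4 to 223, in the same order. No marker of these 4 lists was at 0 in any aged wild-type library. In aged replicate 4 most of the mesothelial sum was Krt18 (352) and Krt8 (297). Msln, Upk3b, Lrrn4 and Muc16 held 1.09, 4.36, 2.18 and 2.18 there, below the 9.61, 40.9, 19.2 and 21.6 of replicate 2 labelled Trem1-/-. The mesothelial sums therefore do not show all mesothelial markers raised in every aged library. In bulk RNA, fewer cells of a type and less RNA per cell cannot be told apart.

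As a set, the members' fold changes were centred near 0 against young wild type and against both groups, and lower against aged wild type. Genes had to average 10 normalized counts or more, and 38 of the 45 were tested by limma on log2(normalized count + 1) beside 11506 genes in all. On that scale the median log2 fold change of libraries labelled Trem1-/- against the mean of both wild-type groups was -0.04 over the 38 members and 0.02 over all genes. The median size, regardless of sign, was 0.16 over the members and 0.18 over all genes. Against young wild type alone the medians were -0.01 and 0.01. Against aged wild type alone they were -0.12 and 0.02, with 13 of the 38 members above 0. In that comparison the median was -0.14 over all tested genes of chromosome 17. It was -0.15 over those at least 10 Mb from Trem1, so the shift was not particular to the members. Medians of the other 19 chromosomes ran from -0.18 to 0.08.

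One member, Rfx2, passed an adjusted p of 0.05 against both wild-type groups, where 0.452% of all genes passed (0.435% higher and 0.0174% lower). Against young wild type 2 members passed, Rfx2 higher and Plcl2 lower, beside 0.921% of all genes (0.591% higher and 0.33% lower). Against aged wild type 8 of 38 passed, beside 18.4% of all genes, so the members' share of 21.1% was near the background. Of these, 3 were higher (11.5% of all genes) and 5 lower (6.82%). The libraries labelled Trem1-/- lay wholly above or wholly below all 7 wild-type libraries for 3 members (Rfx2, Lrg1 and Plcl2), beside 2.95% of all genes (1.88% above and 1.07% below). At an unadjusted p under 0.05, 13 members passed against aged wild type, 7 against young and 5 against both, beside 34%, 14.4% and 16.8% of all genes. Among the 36 tested members within 5 Mb of Trem1, 6 passed limma's test against aged wild type, 1 against young and 0 against both groups, and 1 (Plcl2) did not overlap the wild-type libraries. At an unadjusted p under 0.05, 11 of these 36 passed against aged wild type, 5 against young and 3 against both groups. Against both groups edgeR called 0 of them and DESeq2 called 2 (Ccnd3 and Plcl2), where over all 11506 genes these tools called 48 and 389. The counts against young wild type and against both groups fell to 0 when any young library, aged replicate 6 or any library labelled Trem1-/- was left out. Without aged replicate 4 they were 3 and 3. Against aged wild type, 4 members passed without aged replicate 3, 5 without aged replicate 6, 5 without replicate 1 of those labelled Trem1-/-, and 3 without replicate 2. The share of all genes called in each of these fits is not given here, so these changes are not read as a trait of the members.

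**Figure D1:**
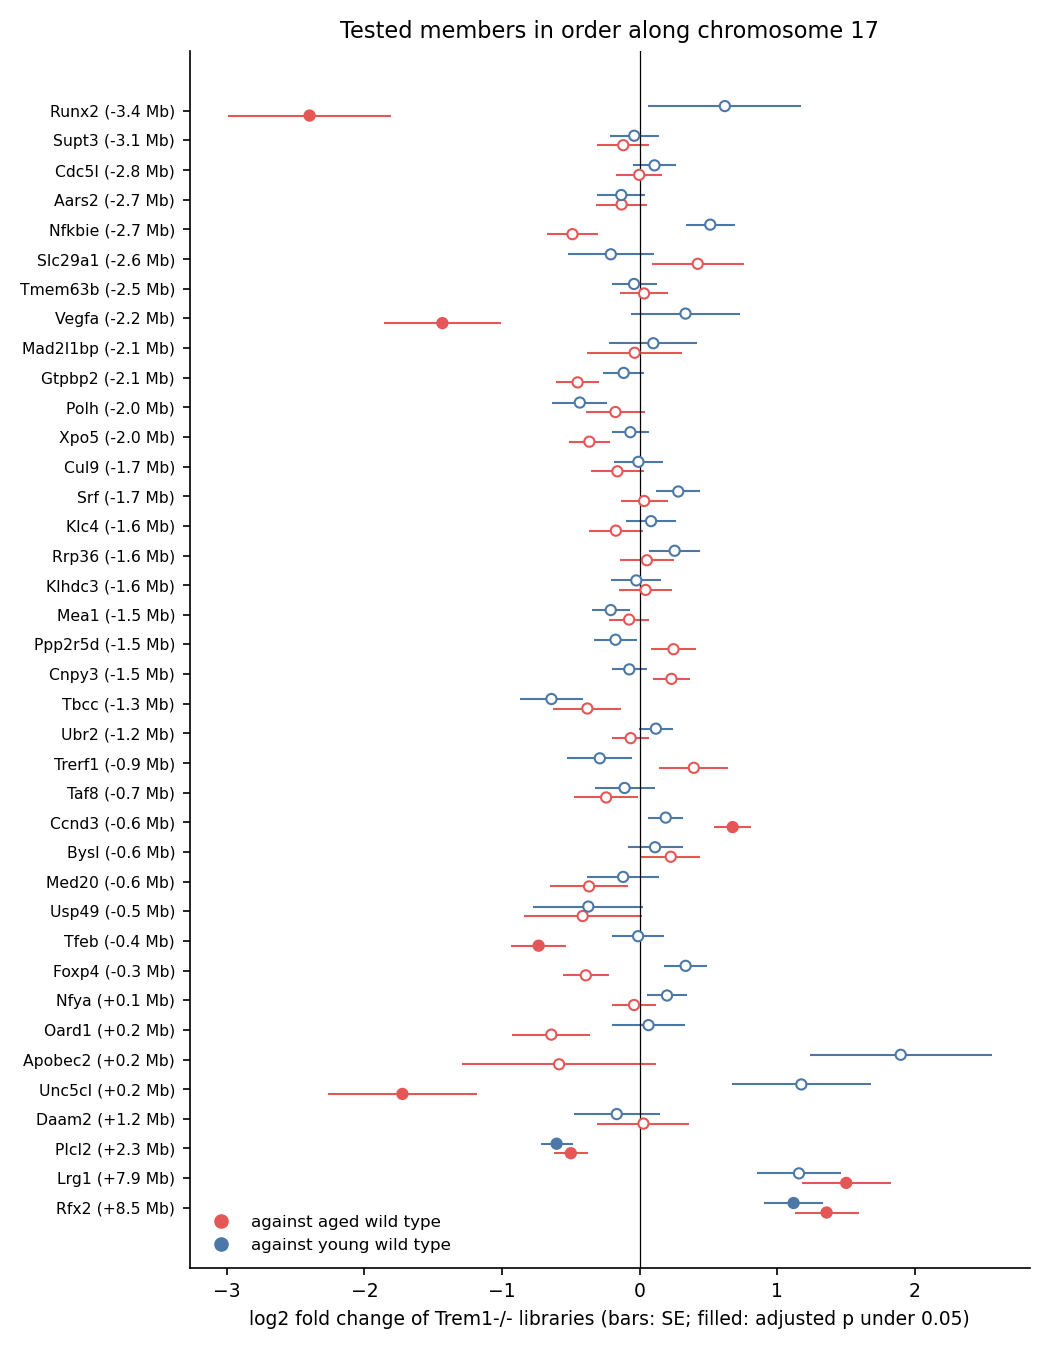
Log2 fold change (horizontal axis) of the 3 libraries labelled Trem1-/- against aged wild type (red) and against young wild type (blue) for the 38 tested members, ordered along chromosome 17 with their distance from Trem1 in Mb; bars are SE and filled points have an adjusted p under 0.05. Rfx2 and Plcl2 are filled in both comparisons, and 6 other members are filled in red only.

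Rfx2, a transcription factor of genes for cilia and sperm development, was about equally high against both wild-type groups. It held 236, 359.7 and 338 normalized counts in libraries labelled Trem1-/-. Aged wild type held 165, 89.5 and 113, and young wild type 166, 119, 125 and 158. The lowest library labelled Trem1-/- thus lay above the highest wild-type one. On the log2 scale the fold change was 1.36 ± 0.23 (SE) against aged wild type (limma adjusted p = 0.00392), 1.12 ± 0.22 against young (0.0404) and 1.24 ± 0.20 against both (0.0333). Aged and young wild type did not pass the test between them (-0.24 ± 0.22, adjusted p = 0.425). The call against aged wild type held when each library was left out in turn, with log2 fold changes of 1.16 to 1.60. Against both groups the fold change stayed at 1.12 to 1.43, but the adjusted p was 0.0518 to 0.123 without any one of the young libraries, aged replicate 6 or any library labelled Trem1-/-. Without those same libraries the adjusted p against young wild type was 0.0572 to 0.158. Per kb of exon, Rfx2 held a mean of 42.6 normalized counts in libraries labelled Trem1-/-, 16.8 in aged and 19.4 in young wild type. Its exons overlap no other annotated gene.

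Lrg1, a secreted leucine-rich glycoprotein best known from liver, neutrophils and blood vessel growth, was the other member above all wild-type libraries. Libraries labelled Trem1-/- held 873, 917 and 635 normalized counts. In aged wild type the values were 202, 515 and 213, and in young wild type 372, 445, 394 and 249. Aged replicate 4 was well above its group. That library also held the highest sum of 6 erythroid markers, 23819 normalized counts, beside 538 and 476 in aged replicates 3 and 6. The part of blood-cell RNA in its values was not tested. The log2 fold change was 1.5 ± 0.32 (SE) against aged wild type (limma adjusted p = 0.0105), where every leave-one-out kept the call. Against young wild type it was 1.16 ± 0.30 (adjusted p = 0.0955) and against both 1.33 ± 0.27 (0.0564), neither passing. Without aged replicate 4 the latter was 1.55 (adjusted p = 0.00284), and DESeq2 gave 1.25 (0.00107). Per kb of exon, over all 10 libraries, Lrg1 was the most abundant member, at 342 normalized counts per kb, ahead of Cnpy3 at 108 and Cdc5l at 101. Of the 50-base stretches of Cdc5l transcripts, 36.6% also occur in other genes, chiefly Gm9045 and Gm9049, so its value is uncertain. Of 8 neutrophil markers, Csf3r held 732 to 757 normalized counts in libraries labelled Trem1-/-. The other 7 held at most 5.11 there, with Ly6g, Mpo and Camp at 0 in all 3 libraries. Elane held 0, 3.20 and 3.44 there and at most 1.2 in wild type. S100a9 held 2.04 to 4.01 there and 1.80 to 33.8 in wild type, and Ly6g was at 0 in 6 of 7 wild-type libraries. The sum of 8 neutrophil markers was 739 to 765 there, beside 635 to 902 for young and 216 to 546 for aged wild type, and most of it was Csf3r. The part of neutrophil RNA in the Lrg1 difference was not tested.

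Plcl2, a catalytically inactive relative of phospholipase C that acts in B-cell receptor signalling, was the one member below all wild-type libraries. It held 315, 293 and 318 normalized counts in libraries labelled Trem1-/-, 499, 392 and 425 in aged wild type, and 502, 487, 398 and 497 in young wild type. The highest library labelled Trem1-/- lay below the lowest wild-type one. The differences in log2 were -0.50 ± 0.12 (SE) against aged wild type (limma adjusted p = 0.0193), -0.60 ± 0.12 against young (0.0404) and -0.55 ± 0.11 against both (0.051). Without aged replicate 3 or replicate 2 of those labelled Trem1-/-, the adjusted p against aged wild type was 0.0698 and 0.0644. Against young wild type it was 0.0508 to 0.126 without any young library, aged replicate 6 or any library labelled Trem1-/-. Without aged replicate 4 the comparison with both groups passed (-0.59, adjusted p = 0.00909). B-cell marker sums in libraries labelled Trem1-/- lay above those of young and below those of aged wild type, and their part in the Plcl2 difference was not tested. Plcl2 lies at chr17:50509403-50688484, 2.26 Mb beyond Trem1.

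**Figure D2:**
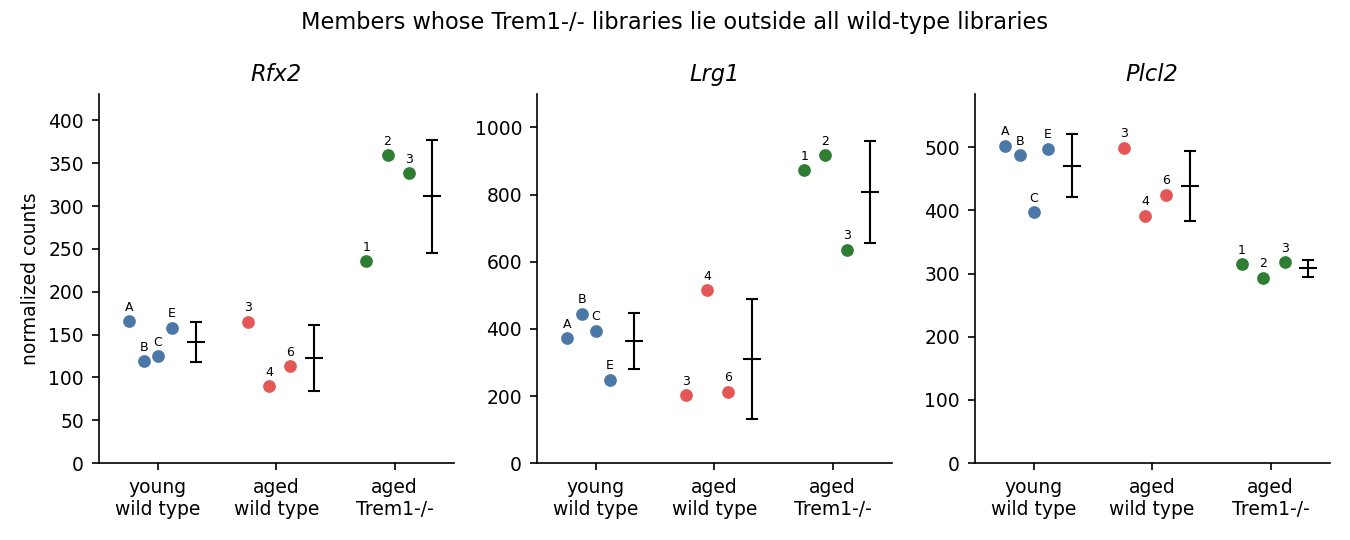
Normalized counts (vertical axes, from 0) of Rfx2, Lrg1 and Plcl2 in each library, by group; points are libraries with their replicate names and the bars beside them are mean and SD (n = 4, 3 and 3). The 3 libraries labelled Trem1-/- lie above every wild-type library for Rfx2 and Lrg1 and below every one for Plcl2.

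Members next to the locus kept levels that overlapped at least one wild-type group, apart from Unc5cl. No member within 1 Mb lay wholly above or wholly below all 7 wild-type libraries, which only 2.95% of all genes did. The share of all genes that, like Unc5cl, overlapped neither wild-type group was not counted. Of the 15 within 1 Mb, 12 were tested and 0 passed limma's test against both wild-type groups, beside 0.452% of all genes. Their log2 fold changes were -0.39 to 0.66. At an unadjusted p under 0.05 there was 1 of the 12, beside 16.8% of all genes. By edgeR 0 were called and by DESeq2 1, Ccnd3, where over all 11506 genes these tools called 48 and 389. Against young wild type 0 passed, beside 0.921% of all genes, and 2 had an unadjusted p under 0.05, beside 14.4%. There edgeR and DESeq2 called 0, where over all genes they called 80 and 448. Against aged wild type 3 of the 12 passed, Ccnd3 higher and Tfeb and Unc5cl lower, beside 18.4% of all genes (11.5% higher and 6.82% lower).

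Of the transcription factors nearest to Trem1, Nfya held 285, 345 and 291 normalized counts in libraries labelled Trem1-/-, 411, 275 and 276 in aged and 246, 262, 269 and 291 in young wild type. Its log2 fold change against both was 0.08 ± 0.13 (SE). Foxp4, a forkhead repressor, held 205, 246 and 194 in libraries labelled Trem1-/-, 349, 239 and 265 in aged and 178, 196, 143 and 165 in young wild type. The libraries labelled Trem1-/- overlapped both other groups for these 2 genes. Tfeb, which drives lysosome and autophagy genes, held 107, 103 and 139.9 there, 275, 149 and 175 in aged and 119, 115, 115 and 117 in young wild type. It was lower than in aged wild type (-0.73 ± 0.20, limma adjusted p = 0.0279) and at -0.01 ± 0.19 against young. Without aged replicate 3, aged replicate 6, or replicates 1 or 2 of those labelled Trem1-/-, the Tfeb difference was -0.80 to -0.48, with adjusted p of 0.0528 to 0.0915. Trerf1, a zinc-finger regulator, held 85.8, 67.3 and 43.6 in libraries labelled Trem1-/-, 49.9, 46.9 and 46.7 in aged and 79.3, 107, 66.1 and 63.9 in young wild type. Its 3 values labelled Trem1-/- spanned the range of both wild-type groups except the highest young library.

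Subunits of the general transcription machinery overlapped between all groups. Med20, of the Mediator complex, held 39.8, 33.6 and 52.8 normalized counts in libraries labelled Trem1-/-, 71.7, 32.7 and 65.6 in aged and 51.4, 46.8, 43.2 and 39.5 in young wild type. Taf8, of TFIID, held 101, 101 and 112 in libraries labelled Trem1-/-, 169, 78.6 and 144 in aged and 126, 110.2, 99.7 and 117 in young wild type. Both ranged most widely in aged wild type. Mdfi, an inhibitor of myogenic factors, was at 0 in 9 libraries and at 1.80 in aged replicate 6, under the level of 3 reads.

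Ccnd3, the D-type cyclin that drives entry into the cell cycle in lymphoid and other cells, was higher than in aged wild type. It held 454, 649.7 and 478 normalized counts in libraries labelled Trem1-/-, 333, 314 and 329 in aged and 432, 456, 508 and 432 in young wild type. All 3 were above every aged wild-type library and overlapped the young ones. Its log2 fold change was 0.68 ± 0.14 (SE) against aged wild type (limma adjusted p = 0.00754), kept under all 19 other settings and leave-one-outs, and 0.19 ± 0.13 against young (0.543). Its neighbour Bysl, a factor of small ribosomal subunit assembly whose exons overlap Ccnd3 on the opposite strand (reads there cannot be told apart without strand), held 72.5, 139 and 84.9, beside 84.5, 76.4 and 82.7 in aged and 77.6, 86.8, 86.5 and 102 in young wild type. Replicate 2 labelled Trem1-/- was the highest library for both genes.

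Usp49, a deubiquitinase of histone H2B, held 13.3, 8.81 and 8.03 normalized counts in libraries labelled Trem1-/-, 24.3, 12 and 8.09 in aged and 8.72, 12.9, 14.4 and 17.4 in young wild type. It shares 52.3% of its exon bases with other genes, chiefly Gm20517 on its own strand, so its value is uncertain, as is that of Med20 (28.4% shared). Frs3, an adaptor of growth factor receptors, held 9.20, 0.801 and 2.29 in libraries labelled Trem1-/-, 5.12, 2.18 and 8.98 in aged and 4.36, 3.69, 1.2 and 2.32 in young wild type. It was below the filter and overlapped throughout.

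On the far side of Trem1, Oard1, which removes ADP-ribose from proteins, held 101, 64.9 and 59.6 normalized counts in libraries labelled Trem1-/-, 173, 91.7 and 95.2 in aged and 75.8, 80.7, 78.1 and 49.97 in young wild type. Apobec2, a muscle-enriched relative of the cytidine deaminases, held 10.2, 8.01 and 21.8 in libraries labelled Trem1-/-, 20.5, 24 and 13.5 in aged and 2.61, 4.31, 7.21 and 0 in young wild type. The libraries labelled Trem1-/- lay above all young ones, and the difference did not pass (1.90 ± 0.66, limma adjusted p = 0.212). Tspo2, a cholesterol-binding protein of red-cell precursors, was at 0 in all 3 libraries labelled Trem1-/- and at most 4.80 elsewhere. Unc5cl, a death-domain protein that can activate NF-κB, held 10.2, 8.01 and 9.18 in libraries labelled Trem1-/-, 66.6, 17.5 and 28.7 in aged and 4.36, 4.93, 4.80 and 1.16 in young wild type. Its 3 groups did not overlap, with the libraries labelled Trem1-/- between the others. It was lower than in aged wild type (-1.72 ± 0.54, adjusted p = 0.0467), with an adjusted p of 0.0568 to 0.187 without young replicate A, B or C, aged replicate 3 or 6, or any library labelled Trem1-/-. Without aged replicate 3 the log2 fold change was -1.21. Unc5cl passed the filter on low values only through aged wild type, and Apobec2 through aged wild type and the libraries labelled Trem1-/-.

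**Figure D3:**
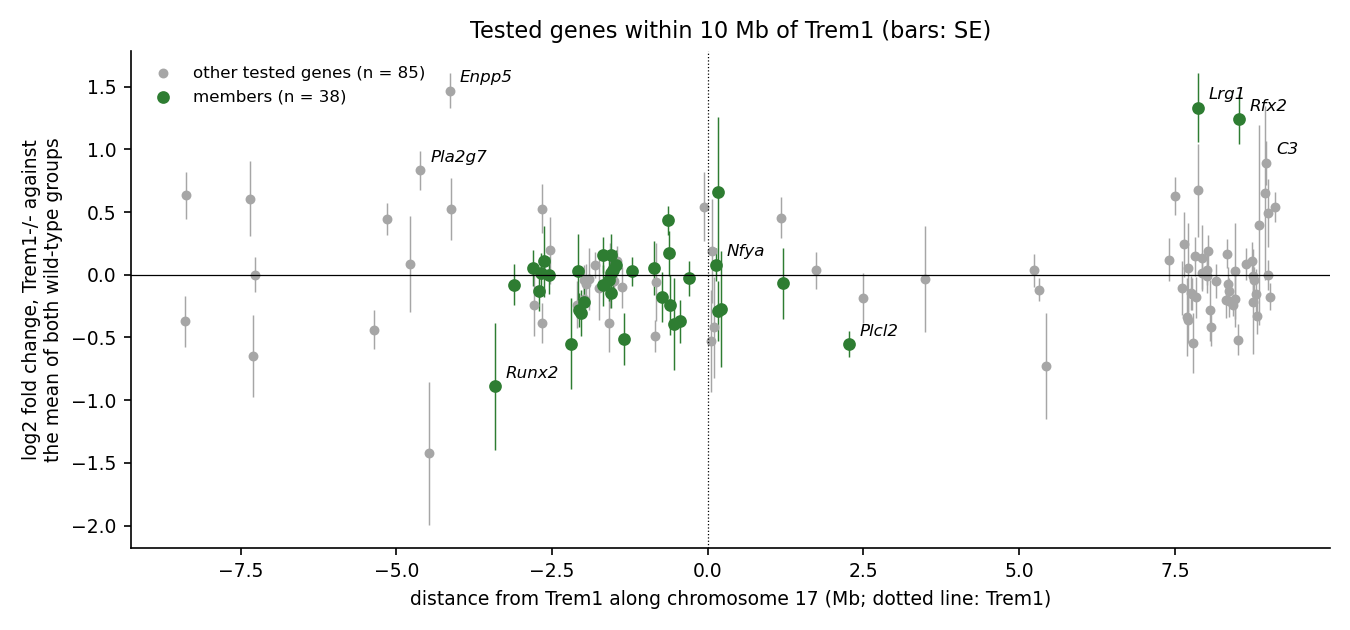
Log2 fold change of libraries labelled Trem1-/- against the mean of both wild-type groups (vertical axis) by distance from Trem1 on chromosome 17 in Mb (horizontal axis), for the 38 tested members (green) and the 85 other tested genes within 10 Mb (grey); bars are SE. Tested members within 1 Mb lie between -0.39 and 0.66, and Lrg1 and Rfx2 stand at the right at 1.33 and 1.24.

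Between 1 and 2 Mb from the locus, 12 of 14 members were tested, and log2 fold changes against both groups ran from -0.51 to 0.16. None passed limma's test there, beside 0.452% of all genes, and 1 had an unadjusted p under 0.05, beside 16.8%. Both edgeR and DESeq2 called 0, where over all 11506 genes they called 48 and 389. The lowest was Tbcc, a tubulin-folding cofactor, at 43.9, 40.1 and 40.1 normalized counts in libraries labelled Trem1-/-, 48.6, 78.6 and 41.3 in aged and 58.4, 53.6, 87.7 and 65.1 in young wild type. It lay below all young libraries (-0.64 ± 0.23, limma adjusted p = 0.226) and overlapped the aged ones. The highest was Srf, the serum response factor of growth and actin genes, at 0.16 ± 0.14. Ubr2, a ubiquitin ligase of the N-degron pathway, was the most abundant of this stretch in normalized counts, with 589 to 755 in libraries labelled Trem1-/-, beside aged values of 623 to 804 and young values of 558 to 652. Cnpy3, a chaperone that Toll-like receptors need to reach their compartments, held 249 to 331, 221 to 285 and 286 to 336 in the same order. Its log2 fold change against both groups was 0.08 ± 0.12. Ptk7, a Wnt pathway pseudokinase, and Kif6, a kinesin, were below the filter, at no more than 2.40 in libraries labelled Trem1-/-.

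Between 2 and 5 Mb, 12 of 14 members were tested. Against both groups 0 passed limma's test, beside 0.452% of all genes, and 1 had an unadjusted p under 0.05, beside 16.8%. By edgeR 0 were called and by DESeq2 Plcl2, where over all 11506 genes these tools called 48 and 389. Log2 fold changes ran from -0.89 to 0.11. The widest was Runx2, best known as the bone-forming transcription factor. Supt3 of the SAGA complex, Cdc5l of the spliceosome, Aars2, the mitochondrial alanyl-tRNA synthetase, and Tmem63b, a mechanosensitive channel, had log2 fold changes of -0.13 to 0.05. The Cdc5l value is uncertain because of the shared sequence given above. Polh, the polymerase that copies past ultraviolet damage, held 58.2, 55.3 and 55.1 in libraries labelled Trem1-/-, below all young libraries (61.0 to 93.0) and within the aged range (51.2 to 88.3). Gtpbp2, which rescues stalled ribosomes, at 156 to 175, and Xpo5 at 1.99 Mb, which exports microRNA precursors, at 147 to 178, lay below all aged wild-type libraries. Neither passed against aged wild type (-0.45 ± 0.16, limma adjusted p = 0.0678, and -0.36 ± 0.15, adjusted p = 0.104). Rcan2, a calcineurin regulator, was at 0 in all young libraries and all libraries labelled Trem1-/-, and Clic5 ran from 1.28 to 14.9 over all libraries.

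Several members set aged wild type apart from young wild type, and for 4 of these (Runx2, Vegfa, Tfeb and Ccnd3) the libraries labelled Trem1-/- overlapped the young range and not the aged one. Of all 3837 genes that passed between aged and young wild type, 53.4% showed that pattern, so 4 of 9 members is near the background. Between aged and young wild type 9 of 38 members passed, beside 33.3% of all genes, with 7 higher (14.3%) and 2 lower (19%). At an unadjusted p under 0.05 there were 13, beside 43.7%. The 7 include Unc5cl and Apobec2, which passed the filter on low values only through groups where they were high. The comparison with aged wild type uses those same aged libraries. Runx2 held 356, 89.5 and 38.6 normalized counts in aged wild type, 12.2, 9.85, 12 and 16.3 in young, and 20.4, 15.2 and 24.1 in libraries labelled Trem1-/-. Aged replicate 3 was far above the other 2. Of its exon bases 5.87% overlap an antisense gene. The log2 fold change of Runx2 was 3.02 ± 0.56 (SE) between aged and young wild type (limma adjusted p = 0.00191) and -2.40 ± 0.59 for libraries labelled Trem1-/- against aged wild type (0.0186). Without aged replicate 3 these were 2.16 and -1.54, and without aged replicate 6 they were 3.75 and -3.13. Without replicate 2 of those labelled Trem1-/- the second was -2.23 (adjusted p = 0.0626).

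Vegfa, the growth factor of blood vessels, held 43.5, 39.3 and 26.1 normalized counts in aged wild type, 14.8, 4.93, 8.41 and 13.9 in young, and 14.3, 16.8 and 8.03 in libraries labelled Trem1-/-. Aged wild type did not overlap the other groups, which overlapped each other. The log2 fold change was 1.77 ± 0.40 (SE) between aged and young wild type (limma adjusted p = 0.00577) and -1.43 ± 0.43 for libraries labelled Trem1-/- against aged (0.0383). The latter had an adjusted p of 0.0506 to 0.123 without young replicate C, any aged library or any library labelled Trem1-/-. Nfkbie, the NF-κB inhibitor IκBε, held 311, 226 and 322 in aged wild type, 147, 166, 118 and 136 in young, and 158, 224 and 231 in libraries labelled Trem1-/-. It was higher in aged than young wild type (1.0 ± 0.18, adjusted p = 0.00151), and the libraries labelled Trem1-/- overlapped both groups.

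The other members that passed between aged and young wild type all lie within 1 Mb of Trem1, with per-library values above. The log2 fold changes were 2.90 ± 0.51 (SE) for Unc5cl (limma adjusted p = 0.00146), 2.48 ± 0.66 for Apobec2 (0.0137), 0.73 ± 0.16 for Foxp4 (0.00444) and 0.72 ± 0.19 for Tfeb (0.0124). Ccnd3 fell (-0.49 ± 0.13, adjusted p = 0.0122), and so did Trerf1 (-0.68 ± 0.24, adjusted p = 0.0434). Unc5cl was 2.39 without aged replicate 3, and Apobec2 was 1.88 without young replicate E. Both had young means under the filter of 10 normalized counts (3.81 and 3.53). Unc5cl was tested only because aged wild type was high, and Apobec2 because aged wild type and libraries labelled Trem1-/- were. Their rises in aged wild type were thus favoured by the filter. The Trerf1 call did not hold (adjusted p 0.05 to 0.109) without young replicate A, B or C, any aged library, or replicate 2 labelled Trem1-/-. B-cell, T- and NK-cell and mesothelial marker sums were highest in aged wild type and macrophage sums lowest, and their part in these differences was not tested. The mesothelial sum of aged replicate 4 was mostly Krt8 and Krt18.

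**Figure D4:**
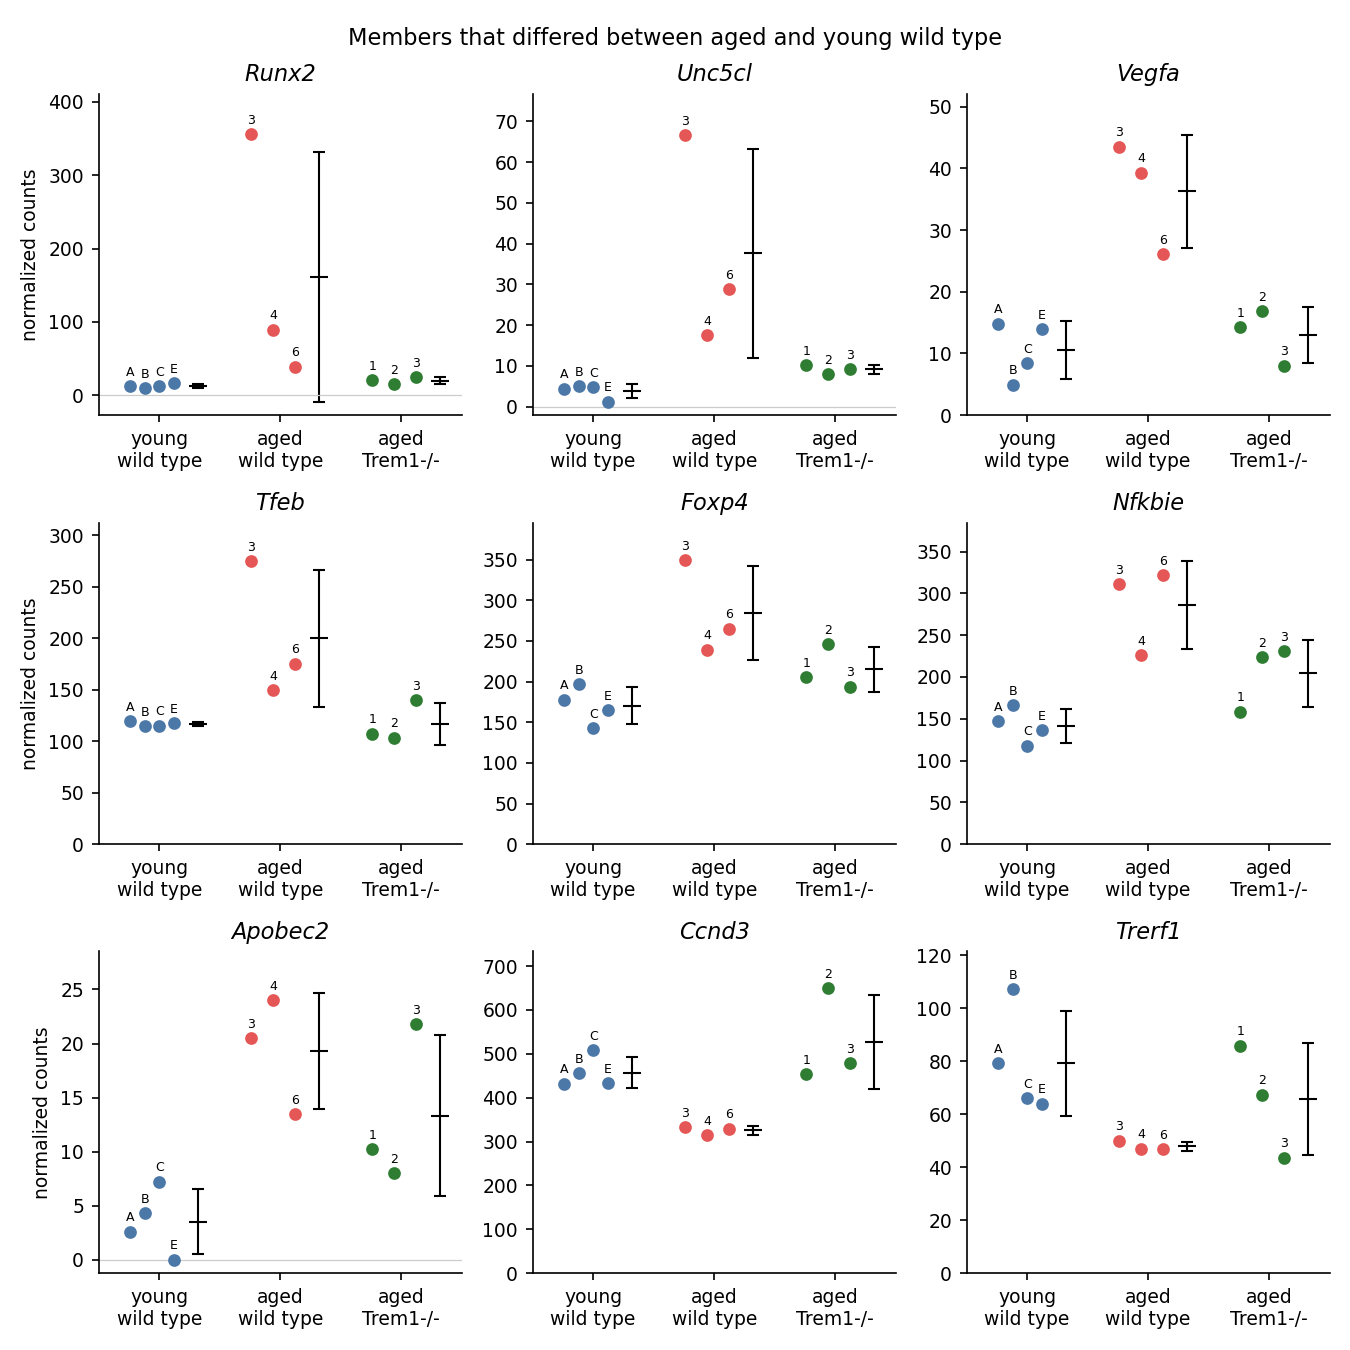
Normalized counts (vertical axes, 0 included) per library of the 9 members that passed between aged and young wild type, by group; points are libraries with their replicate names and bars are mean and SD (n = 4, 3 and 3). For Runx2, Vegfa, Tfeb and Ccnd3 the libraries labelled Trem1-/- overlap the young range and not the aged one, a pattern seen in 53.4% of all genes that passed.

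Counts by role rest on few genes each. Of 10 tested members in transcription and chromatin, 1 rose and 2 fell against aged wild type (11.5% and 6.82% of all genes). The 4 ubiquitin genes, the 3 tested cytoskeletal genes and the 6 genes of RNA, ribosome assembly and translation had 0 calls by limma in either comparison of libraries labelled Trem1-/- (18.4% and 0.921% of all genes). At an unadjusted p under 0.05 these were Xpo5 and Gtpbp2 against aged wild type and Apobec2 and Tbcc against young. Of these genes edgeR called 0, and DESeq2 called Gtpbp2 against aged wild type, where DESeq2 called 2291 of 11506 genes. Of 4 tested signalling genes, 2 fell against aged wild type, Unc5cl and Plcl2, of which Unc5cl passed the filter only through that group. With so few genes these counts do not set a role apart from the background.

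The same counts were made over all tested genes of the region, members and others. Against aged wild type, 5 of 18 passed within 1 Mb (27.8%), 7 of 43 within 2 Mb (16.3%) and 28 of 123 within 10 Mb (22.8%), beside 18.4% of all genes. Within 2 Mb of Trem1, 43 genes were tested and 0 passed limma's test against both wild-type groups, near limma's 0.452% of all genes. Of the 43, 4 had an unadjusted p under 0.05, beside 16.8% of all genes. By edgeR 0 of the 43 were called and by DESeq2 1, where over all 11506 genes these tools called 48 and 389. At 2 to 5 Mb, 2 of 24 passed against both groups (8.33%, beside 0.452% of all genes), both non-members. Enpp5, an ectonucleotidase relative at -4.15 Mb from Trem1, held 172, 132 and 180.1 normalized counts in libraries labelled Trem1-/-, 48.6, 61.1 and 58.4 in aged and 61.9, 63.4, 56.4 and 53.5 in young wild type. Its lowest library labelled Trem1-/- was above the highest wild-type library. The log2 fold change was 1.47 ± 0.14 (SE), with a limma adjusted p of 0.00276 that was 0.0584 without replicate 1 of those labelled Trem1-/-. Pla2g7, the secreted phospholipase that breaks down platelet-activating factor, at -4.62 Mb, was at 0.83 ± 0.15 (adjusted p = 0.0475), a call lost in 9 of 10 leave-one-outs (adjusted p up to 0.146), all but that of aged replicate 4. At 5 to 10 Mb 1 of 56 passed (1.79%), Rfx2. Within 10 Mb 3 of 123 passed against both groups (2.44%), above the 0.452% of all genes. Against young wild type 4 of 123 passed within 10 Mb (3.25%) and 0 of 43 within 2 Mb, beside 0.921% of all genes. These shares rest on few genes. Within 10 Mb the libraries labelled Trem1-/- did not overlap the wild-type libraries for 5.69% of 123 genes, beside 2.95% of all genes. Within 2 Mb the 1 such gene was Mrps10, a non-member at -0.85 Mb. It held 47.0, 51.3 and 48.2 normalized counts in libraries labelled Trem1-/- and 55.8 to 84.0 in wild type. Its log2 fold change was -0.66 against aged wild type (limma adjusted p = 0.0136) and -0.49 against both groups (0.0998). On all of chromosome 17, 5 of 576 tested genes passed against both groups (0.868%), beside 0 to 0.831% on the other 19 chromosomes. The share without overlap on chromosome 17 was 4.86%, beside 1.69% to 5.32% on the others.

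**Figure D5:**
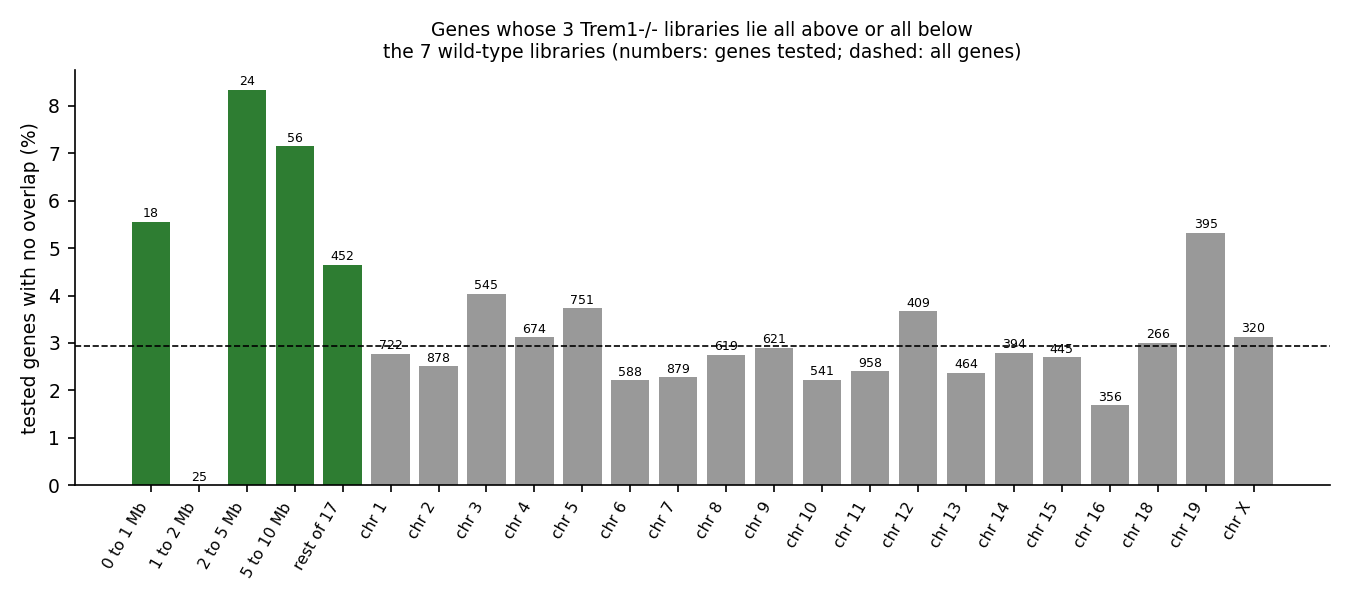
Share of tested genes (vertical axis, percent) whose 3 libraries labelled Trem1-/- lie all above or all below the 7 wild-type libraries, by distance from Trem1 on chromosome 17 (green) and for each other chromosome (grey); numbers over the bars are genes tested and the dashed line is the 2.95% of all genes. The share is 5.56% within 1 Mb (1 of 18 genes), 0 at 1 to 2 Mb, 8.33% at 2 to 5 Mb and 7.14% at 5 to 10 Mb.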

How the data were processed

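RNA from peritoneal macrophages was extracted with a Qiagen column kit and converted with a Takara stranded kit and a NEBNext kit, per the labels' protocols. Per the submitters' processing notes, the build was GRCm38 and the tools named, without roles or order, are featureCounts 1.5.0-p3, DESeq2 1.20.0, STAR and fastp. For their parameters, the annotation release and any use of strand, the sources used here give nothing. The authors deposited 1 column of normalized counts (signal) per library. Their own log2 fold changes, scores (Wald statistics), p-values and mean signal were deposited in the same table for aged against young wild type and were not used. Every library value was a whole multiple of 1 number (tolerance 1e-06, 100% of values), so whole reads were recovered. No deposited column was left unmapped.

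Gene positions came from GENCODE M21 on GRCm38, which 53644 of 54532 symbols (98.4%) matched at 1 place. Log2(normalized count + 1) was fitted in R 4.3.3 by limma 3.58.1 with a mean-variance trend. It used 1 model of 3 groups over all 10 libraries, genes with a mean of at least 10, and Benjamini-Hochberg adjustment over 11506 genes at 0.05. It was tested on simulated data. The comparison with both groups set libraries labelled Trem1-/- against the average of the 2 wild-type means. All 4 comparisons share libraries. Trem1 was also tested by exact permutation. Alternatives were pseudocounts of 0.5 and 5, mean minimums of 1 and 50 or none, TMM scaling, edgeR 4.0.16 and DESeq2 1.42.0 on recovered reads, a fit of 2 groups only, and each library left out. The 7 wild-type libraries as 1 group were added after seeing the data. edgeR called 48 genes against both groups and 2084 against aged wild type, and limma called 52 and 2112.

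Per-library values were given for Trem1, for members starting within 1 Mb of it, for members called against both wild-type groups and for those whose libraries labelled Trem1-/- lay outside all wild-type ones. A few others (Trerf1, Tbcc, Polh, Runx2, Vegfa and Nfkbie among them) were chosen after their values were seen. From the region, non-members called against both groups were named, and so was Mrps10, which lay outside all wild-type libraries within 1 Mb of Trem1. Members, roles and marker lists were chosen with earlier results of these data known. No replicates were merged, since each pair differed by more than counting noise (chi-square over its degrees of freedom, 4.89 to 24.4). The floor of 3 reads covers counting error only. Marker lists for mast, erythroid and dendritic cells were also summed. In young wild type, aged wild type and libraries labelled Trem1-/- these were 242 to 1411, 941 to 2268 and 420 to 1976 normalized counts for mast cells. They were 9.30 to 760.2, 476 to 23819 and 17.2 to 58.5 for erythroid cells, and 152 to 214, 92.2 to 117 and 110.1 to 282 for dendritic cells. The erythroid sum of 23819 was that of aged replicate 4.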

Additional observations from a re-analysis of the deposited data

Results flagged for a closer look

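In 3 of 39 sets of 4 young libraries tested (members and Trem1), 1 library stood apart from the other 3 by more than the 95% limit of Dixon's test, which chance gives in about 1 in 20. Oard1 was 49.97 normalized counts in young replicate E, against 75.8 to 80.7 in the others. Plcl2 was 398 in young replicate C (487 to 502 in the others), and that library still lay above all libraries labelled Trem1-/-. Unc5cl was 1.16 in young replicate E, 1 read, against 4.36 to 4.93. Groups of 3 were not tested.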

How the results depend on the processing

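No called member changed direction under any alternative. Against both wild-type groups 1 member passed; 2 passed with a mean minimum of 50, 3 with no filter, 4 with DESeq2 and 0 with the 7 wild-type libraries as 1 group, and leaving out each library gave 0 to 3. Against young wild type 2 passed, 0 with a mean minimum of 50, and leave-one-out gave 0 to 3. Against aged wild type 8 passed, 5 with only the 2 groups fitted, and leave-one-out gave 3 to 11. Between aged and young wild type 9 passed, 7 to 11 under the other settings and 8 to 13 on leave-one-out. Apart from the edgeR and DESeq2 fits, the share of all genes called under each setting is not given. These counts therefore do not set the members apart from other genes. DESeq2 called 389 genes in all against both groups and 448 against young wild type, where limma called 52 and 106. The Trem1 ratio was 0.788 without replicate 2 labelled Trem1-/-, on the other side of 1, and leave-one-out gave 0.788 to 2.73. The causes were not tested. TMM scaling moved the median of all genes by at most 0.07 in size and the share of higher calls against aged wild type from 62.8% to 72.0%. No paired analysis was possible because the groups compared share fewer than 2 replicate numbers. Members with a mean under 10 normalized counts entered only the lower minimums, where between aged and young wild type Ptk7 passed with a minimum of 1 and Ptk7 and Rcan2 with none.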
